A study of Drosophila melanogaster with 6 samples.

Results

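Rab proteins are small GTPases that sort membrane traffic, and the results below describe their genes in *Drosophila melanogaster* heads. Members were chosen by symbol alone, as *Rab* followed by a number or by X and a number, and 35 of the 17558 genes in the count table met the rule. Of these, 32 encode Rab GTPases and 3 encode regulators named for Rab3 (*Rab3-GEF*, *Rab3-GAP* and *Rab3GAP1*). The regulators are kept out of every Rab GTPase count below, but are counted in the later lists of genes that switch Rabs on or off. *Rab1* has no entry under its present identifier and is not analysed here.

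A Rab switches between a GTP-bound form that sits on a membrane and recruits effectors, and a GDP-bound form that is extracted into the cytosol. Guanine nucleotide exchange factors (GEFs) switch it on, GTPase-activating proteins (GAPs) switch it off, and each Rab marks particular compartments, from the Golgi to synaptic vesicles and lysosomes. Fly photoreceptors carry a large load of such traffic, because rhodopsin must be delivered to the light-sensing membrane, the rhabdomere, and taken back from it for recycling or breakdown.

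The post-isolation samples hold nuclear RNA of nuclei bound by GFP antibody and washed at 300 mM NaCl, labelled photoreceptor neurons, and the pre-isolation samples hold total RNA of the head before isolation (3 of each, numbered as pairs). All 6 came from male flies aged 10 days in a 12:12 light:dark cycle, and both groups carried UAS-GFP-Msp300KASH at attP2 and the rh1-GAL4 driver with ry[506] in a *w* background, so the pre-isolation samples hold the tag too. The flies of each sample were pooled. The rh1-GAL4 driver marks the outer photoreceptors, and is described as active in the antenna as well. Gene counts summed to 11693481 to 14522962 per post-isolation sample, against 9999540 to 11232033 per pre-isolation sample, and reads with more than 1 mapping position were left out of them.

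The comparison asks which Rab genes differ between the tagged nuclei and the head they came from. Levels are CPM, read counts brought to a common library size with edgeR's TMM factors, and differences are log2 fold changes, post-isolation over pre-isolation. Genes above 1 CPM in at least 3 samples were tested, which kept 10378 genes and 26 of the 32 Rab GTPase genes. Each was tested with edgeR's quasi-likelihood fit against a 2-fold difference and against no change, with Benjamini-Hochberg adjustment over all tested genes and a threshold of 0.05. The comparison joins 2 contrasts, tagged nuclei against all head cells and nuclear against total RNA, and these cannot be told apart. In such bulk samples fewer cells of a type and less RNA per cell cannot be told apart either.

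The labelled cell type was checked against its markers. All 12 photoreceptor markers were higher post-isolation, with a summed level of 128450 to 180350 CPM post-isolation, against 53671 to 55698 CPM pre-isolation. Of 10 glial markers 9 were lower, at 1129 to 1555 CPM in sum post-isolation and 2462 to 2602 CPM pre-isolation. For other head cells, 6 of 7 tested neuron markers and 4 of 5 tested fat body markers were lower, the muscle markers were mixed with 3 of 8 higher and 4 lower, and 2 of 4 tested auditory neuron markers were higher. Post-isolation replicate 3 had the lowest photoreceptor sum of its group, and the highest glial and other neuron sums.

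Rab GTPase genes differed little between tagged nuclei and the head. None of the 26 passed the 2-fold test, which called 7.29% of all tested genes higher and 4.89% lower. Against no change, 3 were higher (*Rab9*, *Rab5* and *Rab4*) and 4 were lower (*Rab18*, *Rab27*, *Rab11* and *Rab35*), where 24.4% of all tested genes were higher and 26.1% were lower. At an unadjusted p under 0.05 the number was 11 of 26, beside 5756 of the 10378 tested genes. Under edgeR's RLE factors the split was 5 higher and 3 lower, under DESeq2 4 and 3, and under library size with no scaling factor 0 and 14, a scaling that also moved the median of all tested genes to -0.51. Of all 10378 tested genes, 2672 were higher and 2508 lower under RLE factors, and 2629 and 2457 under DESeq2. Under library size alone, 1394 of them were higher and 4326 were lower.

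The middle of the Rab distribution lay close to that of all genes. The median log2 fold change of the 26 was -0.02, and that of all 10378 tested genes was -0.07. Of the Rab genes, 25 (96.2%) lay within 1 log2 unit of 0, beside 69.0% of all tested genes, and 20 (76.9%) lay within 0.5, beside 40.5%. For 21 of the 26 the estimate with 2 standard errors on either side stayed inside a 2-fold difference in both directions. How many of all tested genes did so was not counted. All 3 post-isolation samples stood above all pre-isolation samples for 5 Rab genes, and all below for 5, where 28.0% and 30.1% of all tested genes did so. By pair, 7 were higher in all 3 numbered pairs, 10 were lower in all 3, and 9 differed in direction among pairs. The same count was not made over all tested genes, so it describes these 26 genes alone.

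**Figure D1:**
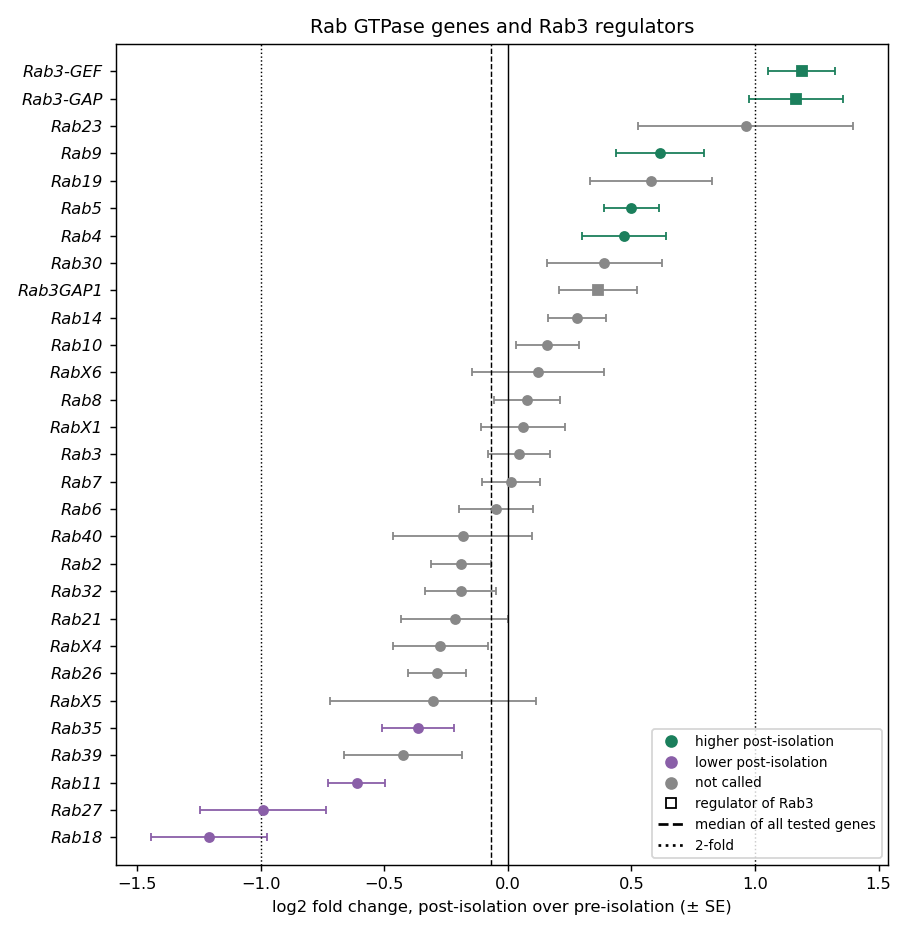
Log2 fold change, post-isolation over pre-isolation, with its standard error (bars) for the 26 tested Rab GTPase genes (circles) and 3 regulators named for Rab3 (squares), from 3 post-isolation and 3 pre-isolation samples. Colours mark the test against no change, the dashed line is the median of all tested genes, and 25 of 26 Rab GTPase genes lie between the dotted lines of a 2-fold difference, with *Rab18* outside them.

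Among the early and recycling endosome Rabs, *Rab5* and *Rab4* were higher in tagged nuclei, *Rab35* was lower, and *Rab14* and *Rab21* were not called. *Rab5* (FBgn0014010, 2L from 2359142 to 2365273 in BDGP6, minus strand) governs the fusion of early endosomes, where internalised rhodopsin first arrives. It had 498, 478 and 439.9 CPM in post-isolation replicates 1 to 3, against 324, 347 and 330.1 CPM in pre-isolation samples. The groups did not overlap, and *Rab5* was 1.41-fold higher (log2 fold change 0.50 ± 0.11 SE, adjusted p = 0.0016 from edgeR's quasi-likelihood test). This call held with each sample left out in turn, with log2 fold changes of 0.47 to 0.60.

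*Rab4* (FBgn0016701, 2R from 17573462 to 17574979), which acts in fast recycling from early endosomes, had 69.4, 65.2 and 49.0 CPM post-isolation, against 42.1, 37.7 and 53.1 CPM pre-isolation. Replicate 3 was higher pre-isolation than post-isolation, so the groups overlapped and 2 of 3 pairs were higher. Its log2 fold change was 0.47 ± 0.17 SE (adjusted p = 0.0328 from edgeR), and the call was lost without post-isolation replicate 1 (adjusted p = 0.126) or 2 (0.0916) and without pre-isolation replicate 1 (0.112) or 2 (0.155).

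*Rab14*, linked to traffic between endosomes and the Golgi and, in fly blood cells, to phagosome maturation, had 164, 157 and 144 CPM post-isolation, against 119.9, 138 and 125 CPM pre-isolation. The groups did not overlap, but the log2 fold change of 0.28 ± 0.12 SE missed the threshold (edgeR adjusted p = 0.0616). It passed under RLE factors (0.0356), DESeq2 (0.0311), a minimum of 10 counts in every sample (0.0452) and without post-isolation replicate 3 (0.00266). *Rab35*, which works in recycling from endosomes and in actin organisation, had 61.7, 56.9 and 80.2 CPM post-isolation, against 82.1, 86.3 and 87.4 CPM pre-isolation. Its log2 fold change of -0.36 ± 0.14 SE lay at the threshold (edgeR adjusted p = 0.0481), with an adjusted p of 0.0808 to 0.202 when a sample other than post-isolation replicate 3 was left out, 0.0745 under RLE factors and 0.0906 under DESeq2. *Rab21*, an endosomal Rab, was not called (-0.22 ± 0.22 SE, 13.7 ± 1.51 CPM post-isolation and 16.0 ± 1.97 CPM pre-isolation, SD, n = 3 each).

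Among the late endosome and lysosome Rabs, *Rab9* was higher and *Rab7*, *Rab32* and *Rab39* were not called. *Rab9* (FBgn0032782, 2L from 19432574 to 19435841, plus strand) is known for retrieval from late endosomes to the Golgi. It had 58.4, 44.3 and 42.1 CPM post-isolation, against 35.5, 33.1 and 25.6 CPM pre-isolation, with no overlap. The difference was 1.53-fold (log2 fold change 0.62 ± 0.18 SE, adjusted p = 0.0093 from edgeR), and the call was lost without post-isolation replicate 1 (0.0583) or without pre-isolation replicate 3 (0.0598).

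*Rab7* sends late endosomes and their cargo, rhodopsin included, to lysosomes. With 178, 194 and 172 CPM post-isolation, against 168, 197 and 175 CPM pre-isolation, it had a log2 fold change of 0.01 ± 0.12 SE, so its groups overlapped almost fully and its sign turned with several settings. *Rab32*, known in flies from the eye colour mutant *lightoid* and needed for pigment granules, had 393, 388 and 546 CPM post-isolation, against 516, 444 and 553 CPM pre-isolation. Post-isolation replicates 1 and 2 lay below all pre-isolation samples and replicate 3 lay among them. Its log2 fold change was -0.19 ± 0.15 SE (edgeR adjusted p = 0.296), and it was called lower only without post-isolation replicate 3 (0.00549) and with library size alone (0.0097) among the alternatives. *Rab39* had a log2 fold change of -0.42 ± 0.24 SE and was not called.

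Of the secretory and Golgi Rabs, *Rab18* was lower and *Rab2*, *Rab6* and *Rab30* were not called. *Rab18* (FBgn0015794, X from 5670827 to 5671812, minus strand) is best known in mammals for a place on the endoplasmic reticulum and lipid droplets. It had 8.51, 7.90 and 10.0 CPM post-isolation, against 21.8, 22.8 and 16.3 CPM pre-isolation, on 86 to 110 counts post-isolation and 191 to 288 counts pre-isolation. Every post-isolation sample lay below every pre-isolation sample. At a log2 fold change of -1.21 ± 0.24 SE, 2.31-fold lower, *Rab18* had the lowest value of the family, was below no change (adjusted p = 5.8e-04 from edgeR) and did not pass the 2-fold test (adjusted p = 0.343).

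*Rab6*, a Golgi Rab that fly photoreceptors need to deliver rhodopsin, had 49.9, 44.9 and 46.1 CPM post-isolation, against 46.5, 56.7 and 42.3 CPM pre-isolation. Its log2 fold change of -0.05 ± 0.15 SE turned positive under RLE factors and DESeq2. *Rab2*, which acts at the Golgi and in fusion with lysosomes, had 114, 109 and 104 CPM post-isolation, against 138, 122 and 114 CPM pre-isolation. It was lower in all 3 pairs and was not called (-0.19 ± 0.12 SE, edgeR adjusted p = 0.217). *Rab30*, also of the Golgi, was not called at 0.39 ± 0.23 SE.

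In the post-Golgi and exocytic group, *Rab11* was lower and *Rab8* and *Rab10* were not called. *Rab11* (FBgn0015790, 3R from 21111408 to 21116146, plus strand) marks recycling endosomes and carries rhodopsin to the rhabdomere in fly photoreceptors. It had 119.9, 112 and 123 CPM post-isolation, against 172, 192 and 178 CPM pre-isolation. The groups stood well apart, and *Rab11* was 1.53-fold lower (log2 fold change -0.61 ± 0.12 SE, adjusted p = 4.5e-04 from edgeR), with -0.65 to -0.56 over the fits that each left out a sample. *Rab8*, which takes Golgi cargo to the cell surface, had 91.9, 74.1 and 86.6 CPM post-isolation, against 75.2, 77.0 and 87.4 CPM pre-isolation, and its groups overlapped (0.08 ± 0.13 SE). *Rab10*, which directs polarised secretion in fly epithelia, had a log2 fold change of 0.16 ± 0.13 SE.

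**Figure D2:**
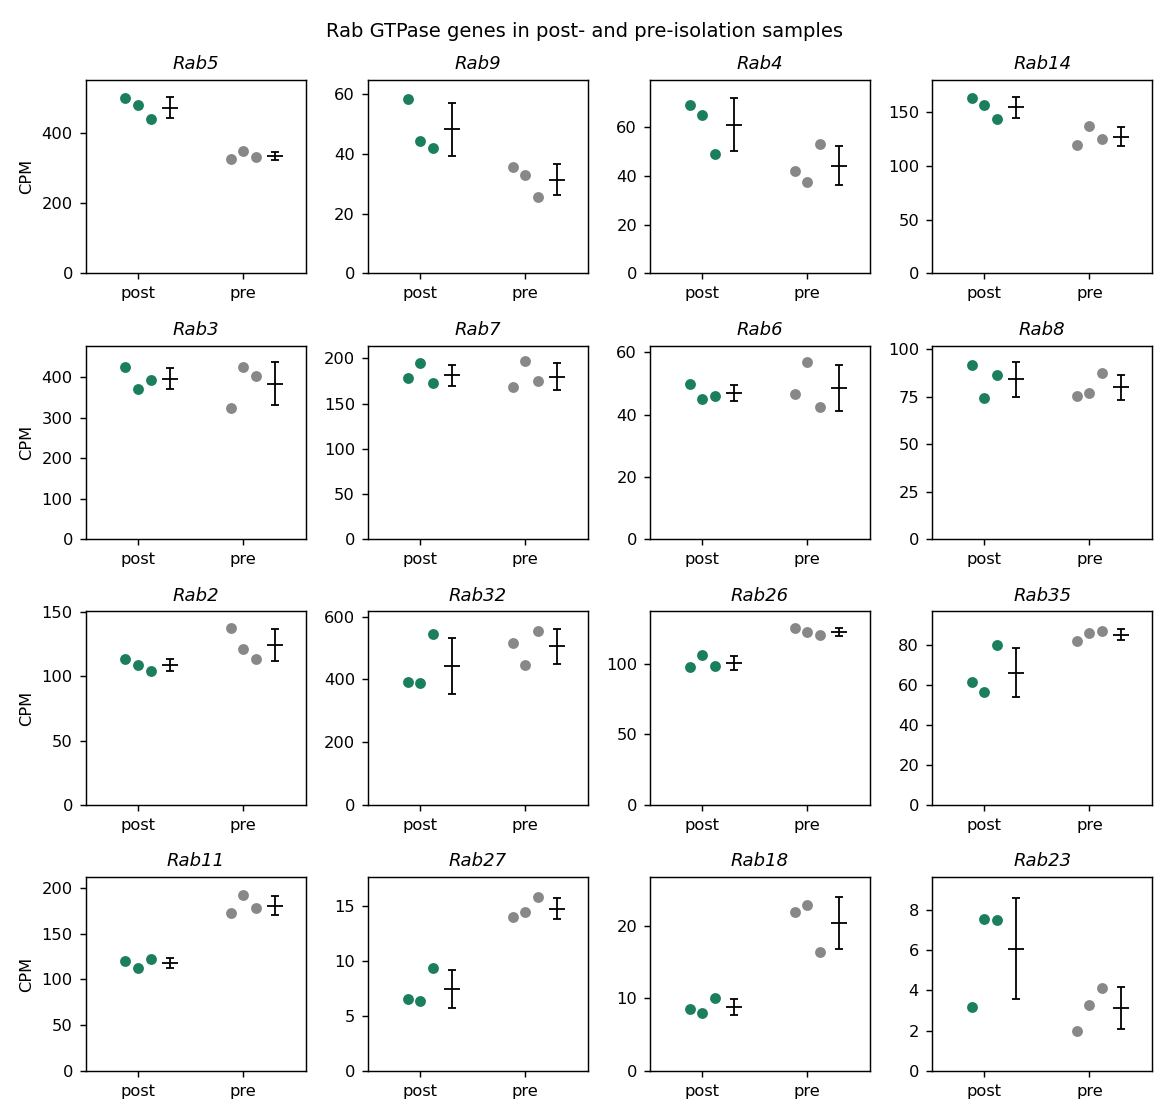
CPM of 16 Rab GTPase genes in each of 3 post-isolation samples (left of each panel, replicates 1 to 3 from left to right) and 3 pre-isolation samples (right), with group mean and SD as bars and every axis starting at 0. *Rab5*, *Rab9*, *Rab14*, *Rab26*, *Rab35*, *Rab11*, *Rab27* and *Rab18* show no overlap between groups, though *Rab14* and *Rab26* were not called. *Rab7* and *Rab3* overlap, as does *Rab4*, which was called.

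Regulated secretion gave 1 call. *Rab27* (FBgn0025382, X from 1473884 to 1476974, minus strand), which in mammals docks secretory granules, had 6.53, 6.34 and 9.40 CPM post-isolation, against 14.0, 14.4 and 15.8 CPM pre-isolation. No post-isolation sample reached the lowest pre-isolation sample, on 69 to 103 counts post-isolation and 182 to 185 counts pre-isolation. *Rab27* was 1.99-fold lower (log2 fold change -0.99 ± 0.26 SE, adjusted p = 0.0047 from edgeR), and the call held with each sample left out in turn. *Rab3*, the synaptic vesicle Rab that also shapes fly active zones, had 424, 372 and 393 CPM post-isolation, against 325, 425 and 402 CPM pre-isolation. The groups overlapped, with pre-isolation replicate 1 below every post-isolation sample (0.04 ± 0.13 SE), and the sign turned with library size alone and with the authors' filtered table. *Rab26*, linked to synaptic vesicles and their degradation, had 97.4, 106 and 98.1 CPM post-isolation, against 125, 122 and 120.0 CPM pre-isolation. Its groups did not overlap, yet the log2 fold change of -0.29 ± 0.12 SE missed the threshold (edgeR adjusted p = 0.0526) except on the authors' filtered table (0.0147) and under library size alone (3.4e-04).

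None of the remaining tested members was called. *Rab23*, a regulator of hedgehog signalling in mammals and of hair polarity in the fly wing, had 3.18, 7.53 and 7.48 CPM post-isolation, against 1.99, 3.25 and 4.10 CPM pre-isolation, on 26 to 82 counts per sample. Its log2 fold change was the highest of the family at 0.96 ± 0.43 SE. The groups overlapped and it was not called (edgeR adjusted p = 0.0794), but it was without post-isolation replicate 1 (0.0222), the lowest of its group. *Rab19* had 13.8, 14.2 and 10.9 CPM post-isolation, against 9.12, 9.20 and 7.77 CPM pre-isolation. Its groups did not overlap, but it missed the threshold (0.58 ± 0.25 SE, edgeR adjusted p = 0.0644) and passed under RLE factors (0.0483) and without post-isolation replicate 3 (0.0233). *Rab40*, *RabX1*, *RabX4*, *RabX5* and *RabX6* had log2 fold changes of -0.30 to 0.12. *RabX4* shares 131 bp of exon with another gene on the same strand, where reads can be left uncounted, and no other tested member shares exon sequence in this way.

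For all 7 called Rab genes, post-isolation replicate 3 had the value nearest to the pre-isolation mean, the lowest of its group for the 3 higher genes and the highest for the 4 lower ones. This was not counted over all called genes, so it is not shown to be particular to the Rab genes. Without post-isolation replicate 3, 6 Rab genes were higher and 5 were lower, all 7 among them, with *Rab10*, *Rab14*, *Rab19* and *Rab32* added. In the same fit, 2785 of all 10129 tested genes were higher and 2802 were lower. As given above, the same sample had the lowest photoreceptor and the highest glial marker sum of its group. The part of these marker levels in the Rab differences was not tested.

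Levels can be compared between genes only per length, here as CPM per kb of merged exons. Post-isolation, *Rab5* had the highest level at 150.0 ± 9.32 CPM per kb, followed by *Rab32* at 108 ± 22.0, *Rab7* at 107 ± 6.77 and *Rab3* at 105 ± 7.03 (SD, n = 3). Pre-isolation, *Rab32* came first at 124 ± 13.6 CPM per kb, followed by *Rab5* at 106 ± 3.72, *Rab7* at 106 ± 8.82, *Rab3* at 102 ± 14.0 and *Rab11* at 99.4 ± 5.63. By merged exons, post-isolation *Rab5* stood above the others by more than their SDs, whereas *Rab32*, *Rab7* and *Rab3* did not separate in either group. Per kb of the longest transcript, *Rab32* stood apart from these, at 160 CPM post-isolation and 182 CPM pre-isolation. *Rab7* was then at 120 and 119 CPM per kb, *Rab3* at 105 and 102, and *Rab5* at 189 and 134. By that length post-isolation *Rab14*, at 105 CPM per kb, was level with *Rab3*. *Rab23* had the lowest level in both, at 2.68 ± 1.10 CPM per kb post-isolation and 1.37 ± 0.47 pre-isolation. The median tested Rab gene was at 22.2 CPM per kb post-isolation and 24.3 pre-isolation. Over all tested genes with an exon length the median was 8.93 CPM per kb post-isolation and 9.51 pre-isolation.

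The order of the 26 levels was much alike in both groups (Spearman's rho 0.957 across genes, which share these libraries). The widest moves in rank were those of *Rab18*, which was 19th post-isolation and 13th pre-isolation, of *Rab9*, which was 11th post-isolation and 16th pre-isolation, and of *Rab19*, which was 17th post-isolation and 22nd pre-isolation. *Rab32*, *Rab3* and *Rab5* together gave 50.4% to 53.5% of the counts of the 26 tested Rab GTPase genes post-isolation, against 47.4% to 50.7% pre-isolation. The 26 tested Rab GTPase genes together took 0.206%, 0.205% and 0.242% of gene counts post-isolation, against 0.282%, 0.299% and 0.297% pre-isolation. This unscaled share was lower in every post-isolation sample. The summed photoreceptor marker level was higher in the same samples, and its part in the Rab share was not tested.

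**Figure D3:**
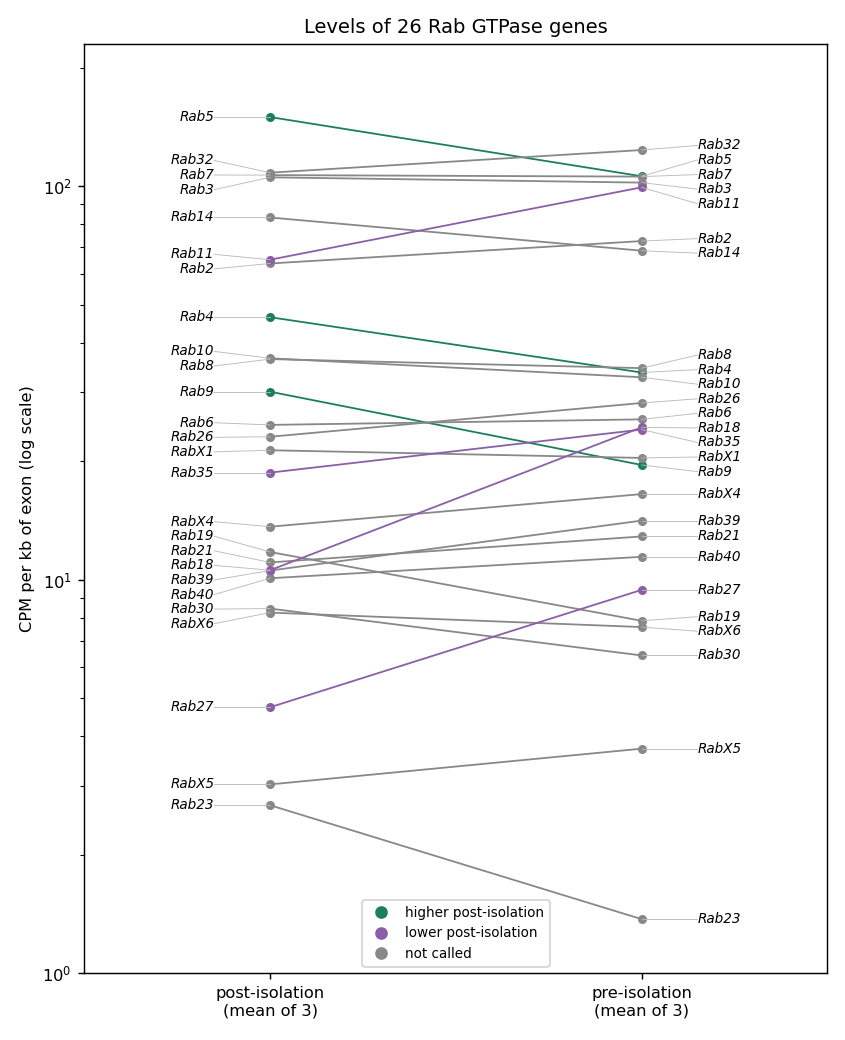
Mean level of the 26 tested Rab GTPase genes in CPM per kb of exon (log axis) in 3 post-isolation samples (left) and 3 pre-isolation samples (right), with a line per gene coloured by the test against no change. Most lines run nearly level, from *Rab5*, *Rab32*, *Rab7* and *Rab3* at the top to *Rab23* at the bottom, with *Rab18* higher on the pre-isolation side.

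The 6 untested members are *RabX2* and the Rab9-like copies *Rab9D*, *Rab9Db*, *Rab9E*, *Rab9Fa* and *Rab9Fb*, all on X between 10417429 and 10952486 and each with a single exon of 791 to 897 bp. *Rab9D*, *Rab9Db* and *Rab9Fa* had 0 counts in all 6 samples, and a count of 0 allows up to 3 counts in a library. *Rab9Fb* had 3 counts in post-isolation replicate 1 and 0 elsewhere, and *RabX2* had 0 post-isolation and 0, 2 and 2 counts pre-isolation. *Rab9E* had 13, 1 and 16 counts post-isolation, against 0, 8 and 0 pre-isolation. These copies resemble each other, and since reads with several mapping positions were left out, their values are uncertain.

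By chromosome, the median log2 fold change of the tested Rab genes was -0.36 on X (7 genes) and 0.39 on 2L (5 genes), beside -0.04 and -0.05 for all tested genes of these chromosomes, and it was 0.04 on 2R, 0.08 on 3L and -0.13 on 3R, a description with no test. Of the 7 tested Rab genes on X, 3 were lower (*Rab18*, *Rab27* and *Rab35*), beside 26.3% of all 1679 tested X genes, and none was higher, beside 24.7%. On 2L, 2 of 5 were higher (*Rab5* and *Rab9*), beside 25.2% of all 1806 tested 2L genes. Across the 26 genes the log2 fold change had Pearson's r of 0.15 with gene span, 0.19 with exon length, 0.07 with the intron share and 0.14 with the number of exons, as descriptions over genes that share these libraries.

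Of the 3 regulators named for Rab3, 2 were higher against no change and none passed the 2-fold test. *Rab3-GEF*, the exchange factor of Rab3 (FBgn0030613, X from 15089682 to 15113762), had 1074, 1048 and 794 CPM post-isolation, against 391, 445 and 443 CPM pre-isolation. Its groups did not overlap, and its log2 fold change was 1.19 ± 0.14 SE (edgeR adjusted p = 4.2e-06 against no change and 0.167 against 2-fold). *Rab3-GAP*, which with Rab3GAP1 forms a complex that switches Rab3 off, had 53.6, 42.7 and 40.1 CPM post-isolation, against 15.6, 23.3 and 22.1 CPM pre-isolation (1.17 ± 0.19 SE, edgeR adjusted p = 1.3e-04 and 0.346 against 2-fold). *Rab3GAP1*, the other subunit, was not called at 0.36 ± 0.16 SE (edgeR adjusted p = 0.0678). Without post-isolation replicate 3, *Rab3-GEF* passed the 2-fold test (adjusted p = 1.9e-04). The difference between these genes and *Rab3* itself was not tested.

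Prenylation and membrane extraction serve all Rabs. *Gdi*, which draws GDP-bound Rabs off membranes, was lower at 128 ± 14.7 CPM post-isolation and 177 ± 0.71 CPM pre-isolation (SD, n = 3 each; log2 fold change -0.47 ± 0.12 SE, edgeR adjusted p = 0.0046). *Rep*, the Rab escort protein, had 0.13 ± 0.25 SE, and *RabGGTa* and *RabGGTb*, the subunits of the enzyme that attaches the lipid anchor, had 0.04 ± 0.19 SE and -0.13 ± 0.20 SE. None of these 3 was called.

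Of 24 tested GEF genes, 10 were higher and 1 was lower against no change (45.8% called in all, beside 24.4% higher, 26.1% lower and 50.5% called among all tested genes), with a median log2 fold change of 0.31 that became -0.14 under library size alone, where the median of all genes was -0.51. *Rich*, which activates Rab6 together with its partner CG1116, passed the 2-fold test (edgeR adjusted p = 0.0071) with 249, 199 and 198 CPM post-isolation, against 74.5, 84.5 and 82.1 CPM pre-isolation (1.42 ± 0.13 SE on the log2 scale). That call was lost under library size alone (0.757). *CG1116* had 1.13 ± 0.19 SE. *Mon1*, which with Ccz1 switches on Rab7, was higher at 1.20 ± 0.19 SE, while *Ccz1* was not called at -0.17 ± 0.27 SE. *Gapvd1*, an activator of Rab5, had 1.14 ± 0.11 SE, *Crag*, an activator of Rab11 in fly photoreceptors, had 0.91 ± 0.11 SE, and *ca*, the eye colour gene *claret* that works with Rab32, had 0.64 ± 0.11 SE, all 3 higher. The other 13 GEF genes were not called, among them *Rabex-5* at 0.01 ± 0.26 SE and *spri* at -0.03 ± 0.12 SE. *HPS4*, whose mammalian counterpart activates Rab32 together with HPS1, was lower at -0.50 ± 0.13 SE.

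Of 14 tested GAP genes, 4 were higher and 2 were lower, none past 2-fold, a total of 42.9% called beside 50.5% of all tested genes and a higher share near the 24.4% of all, with a median of 0.10 that became -0.35 under library size alone. *Rab3-GAP* had the highest value of this list, and *TBC1d7* had the lowest at -0.76 ± 0.42 SE, which was not called. *plx* was lower at -0.70 ± 0.15 SE and *Evi5*, a GAP of Rab11 in flies, at -0.32 ± 0.12 SE. *RN-tre* was higher at 0.34 ± 0.12 SE.

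Effector genes were the list with the most calls, though the lists were chosen with earlier results of these data known. Of 25 tested, 15 were higher and 2 were lower (*BicD* and *GM130*), with a median log2 fold change of 0.55, or 0.10 under library size alone, and 5 passed the 2-fold test upwards. Of all tested genes 24.4% were higher, 26.1% were lower and 7.29% passed the 2-fold test upwards. Under DESeq2 and under library size alone 3 effectors passed it. Of the 5, *btsz*, a synaptotagmin-like protein of the kind that binds Rab27 in mammals, had 1116, 1021 and 756 CPM post-isolation, against 241, 253 and 242 CPM pre-isolation (1.98 ± 0.14 SE). *didum*, the myosin V motor that moves Rab11 vesicles to the rhabdomere, had 874, 637 and 489 CPM post-isolation, against 188, 178 and 178 CPM pre-isolation (1.88 ± 0.17 SE). *Rim*, the active zone partner of Rab3, had 2523, 2978 and 1764 CPM post-isolation, against 646, 712 and 748 CPM pre-isolation (1.79 ± 0.17 SE). The groups were apart in all 3 genes, and their calls held with each sample left out in turn.

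*Rph*, rabphilin, which binds Rab3 and Rab27, had 117, 92.6 and 79.0 CPM post-isolation, against 34.9, 34.5 and 35.9 CPM pre-isolation (1.45 ± 0.16 SE, edgeR adjusted p = 0.0140 against 2-fold). *lt*, the Vps41 subunit of the tethering complex that Rab7 uses, had 151, 144 and 77.1 CPM post-isolation, against 37.1, 47.7 and 46.1 CPM pre-isolation (1.51 ± 0.21 SE, edgeR adjusted p = 0.0323). The 2-fold call of *Rph* was lost without post-isolation replicate 1 (0.0919) and without pre-isolation replicate 2 (0.0506), and that of *lt* in each fit that left out a sample other than post-isolation replicate 3, with adjusted p-values of 0.0512 to 0.157. Both were also lost under DESeq2 (0.0635 for *Rph* and 0.138 for *lt*) and library size alone (0.653 for *Rph* and 0.536 for *lt*), and *lt* on the authors' filtered table (0.0550). *Rip11* and *nuf*, partners of *Rab11*, were higher at 0.87 ± 0.13 SE and 0.67 ± 0.12 SE, while *Sec15* of the same list was not called at 0.23 ± 0.23 SE. Outside the 3 regulators already named, 27 of 64 tested genes of the 4 lists were higher, 6 were lower and 6 passed the 2-fold test, where 3, 4 and 0 of the 26 Rab GTPase genes did. In all, 51.6% of these 64 genes were called against no change, close to the 50.5% of all tested genes, and 26.9% of the Rab GTPase genes. Whether the lists differ from the Rab genes was not tested.

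**Figure D4:**
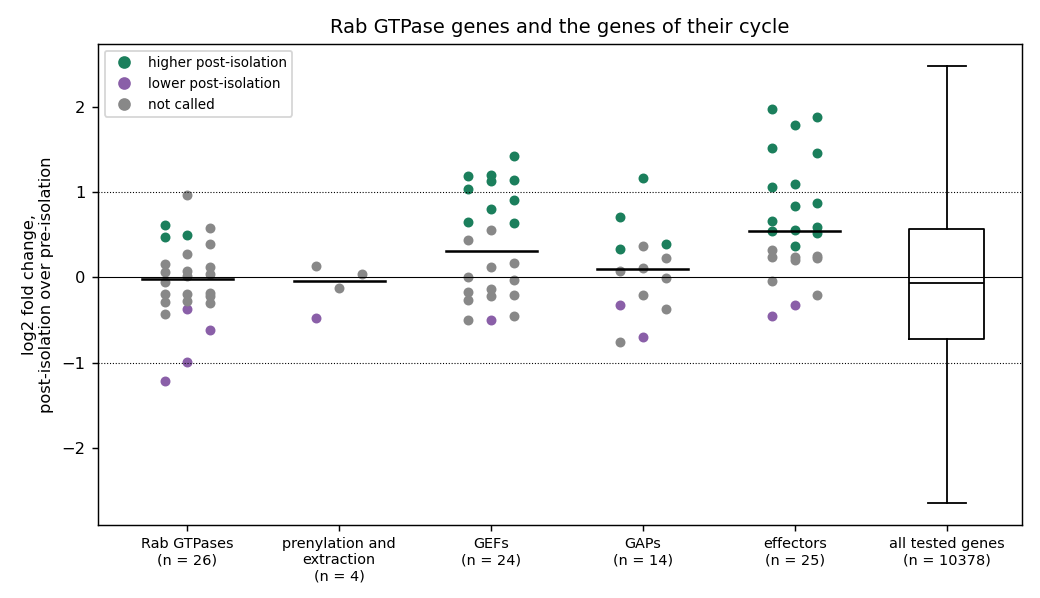
Log2 fold changes, post-isolation over pre-isolation, of Rab GTPase genes and of 4 lists of genes of the Rab cycle (1 point per gene, black bar at the median, colours by the test against no change), with a box of quartiles for all 10378 tested genes whose whiskers reach to 1.5 times the box height. The Rab GTPase points gather around 0 with a median of -0.02, and the effector median is 0.55.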

How the data were processed

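Heads of male flies gave 3 post-isolation and 3 pre-isolation samples in 3 pairs. Single-end reads of 50 bp were trimmed by the authors (Trimmomatic) and aligned to BDGP6 (TopHat, Bowtie 2), and the deposited table gives the strand-specific HTSeq count per gene with no normalization. The authors' CPM table of a filtered gene set was not used. Positions and exon lengths came from a newer Ensembl annotation of BDGP6 that held 17252 of 17558 genes (98.3%).

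Counts were filtered at more than 1 CPM in 3 samples, scaled by TMM and tested in edgeR 4.0.16 (R 4.3.3) with glmQLFit, glmTreat against 2-fold and glmQLFTest, with group as the term, after a test on simulated data. Standard errors were derived from the F statistic. DESeq2 1.42.0, RLE factors, library size alone, 2 other filters, the authors' filtered table, the replicate block and leaving out each sample were planned, and the legacy quasi-likelihood fit was added after seeing the data. Summaries used Python 3.11.15 with pandas 2.3.3, and plots used matplotlib 3.10.9.

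The members and lists were chosen with earlier results of these data known. Sample values were given for members past 2-fold, the 3 highest and 3 lowest fold changes and the 3 highest levels per kb per group. They were also given for Rabs with known work in photoreceptors, pigment or synapses and for list genes past 2-fold. *Rab3-GEF* and *Rab3-GAP* have them too, and other named list genes have group means or fold changes only. *Rab4* and *Rab35* values were added because they were called. The labels pair the samples by number; deviations of same-numbered samples from their group means correlated at 0.0079, 0.047 and -0.016. Counting error alone underlies the 0-count limit.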

Additional observations from a re-analysis of the deposited data

How the results depend on the processing

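With 3 samples a group, depth limits the members with few counts most, such as *Rab23* and *RabX5*, and the share of unique sequence per gene was not run, since no genome sequence was used here. The 2-fold count of Rab GTPase genes stayed at 0 in both directions under every alternative except library size alone, with 1 lower (*Rab18*, edgeR adjusted p = 0.0193). The authors' filtered table held only 16 of the 26 genes, without *Rab18*, *Rab27* and *Rab23*, so it could not call these. Against no change, 5 were higher under edgeR's RLE factors and 0 under library size alone, where 14 were lower and the median of the 26 genes was -0.46. Of all 10378 tested genes, 2672 were higher under RLE factors and 1394 under library size alone, where 4326 were lower. Relative to the median of all tested genes, which that scaling moved to -0.51, the Rab median stood at 0.048, as it did with TMM (0.049). With the replicate block, 3 were higher and 4 lower, and it changed no call among the members; the Rab median was then -0.013. Leaving out each sample gave 2 to 6 higher and 3 to 5 lower, with a median of -0.087 to 0.063 and a distance from all genes of -0.034 to 0.11. Over these fits 2157 to 2785 of all tested genes were higher and 2211 to 2802 were lower. Under library size alone the log2 fold change turned to -0.29 for *Rab10*, -0.17 for *Rab14*, -0.40 for *Rab3*, -0.0599 for *Rab30*, -0.0887 for *Rab3GAP1*, -0.43 for *Rab7*, -0.37 for *Rab8*, -0.38 for *RabX1* and -0.32 for *RabX6*. On the authors' filtered table it turned to -0.0053 for *Rab3* and -0.037 for *Rab7*, and *Rab6* turned to 0.0072 under RLE factors and 0.0078 under DESeq2. With each sample left out in turn, *Rab3* ranged from -0.067 to 0.12, *Rab40* from -0.44 to 0.24, *Rab6* from -0.14 to 0.075, *Rab7* from -0.039 to 0.10 and *RabX1* from -0.048 to 0.18. The cause of these turns was not tested.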
